A study of Mus musculus with 9 samples.

Results

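The 10 genes described here encode regulators and core subunits of the mTOR growth pathway: Rheb, Rhebl1, Tsc1, Tsc2, Sesn1, Sesn2, Sesn3, Ddit4, Mtor and Rptor. They were taken by gene symbol from 22180 genes measured on the arrays, and for a gene with several array features the brightest over all 9 arrays was to be read. Each of the 10 had a single feature, so that choice decided nothing. The members were chosen by name, as a pathway, with results of these arrays known, and 2 of them, Sesn2 and Rheb, had been singled out by their difference between the Pum2 and IgG precipitates. Those 2 differences are given as a description, without a test.

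Cortices came from wild-type mouse embryos of the CD1 strain at embryonic day 12 to 13, and RNA was measured in 3 groups of 3 biological replicates. The first group was RNA precipitated with a rabbit antibody to Pumilio2 (Pum2), an RNA-binding protein that represses the translation of mRNAs. The second was RNA precipitated with normal rabbit IgG, the nonspecific background of the method, and the third was total input RNA, taken with no antibody. All 9 samples were hybridised to the Mouse Gene 2.0 ST array, and the labels do not say how many embryos went into a replicate.

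mTOR is a protein kinase that couples cell growth and protein synthesis to growth factors, energy and amino acids. In mTOR complex 1 it works with the scaffold Raptor, the product of Rptor, and it is switched on by the small GTPase Rheb at the lysosome. The Tsc1 and Tsc2 proteins form the complex that turns Rheb off, and Sestrins and Ddit4 are made under stress and restrain the pathway further upstream. In the brain, loss of TSC1 or TSC2 causes tuberous sclerosis, a disease with malformations of the cortex.

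All values are log2 signals, so a difference of 1 is a doubling, and differences are given with their standard error (n = 3 arrays per group) from a limma fit over all 22180 genes. A gene was called when its p-value, adjusted over all genes, was below 0.05. Signals are relative to the rest of each array, so a gene's share of the RNA was measured and not its amount, and in tissue RNA fewer cells of a type and less RNA per cell cannot be told apart. The median SD between replicates over all genes was 0.10 in Pum2, 0.12 in IgG and 0.11 in input arrays, and no array stood apart, with Pearson r over genes of at least 0.994 within a group. All 10 measured markers of cortical precursors and neurons lay above the median gene in input. Markers of other cells were also detected above that median: all 4 endothelial, all 4 meningeal, 3 of 4 microglial, both measured red blood cell genes and 1 of 4 genes of the ganglionic eminence. The median Pum2 over IgG difference was 0.54 for the endothelial, 0.34 for the meningeal, 0.24 for the microglial, 0.21 for the cortical, 0.14 for the ganglionic eminence and -0.44 for the red blood cell markers, and the part of cell makeup in the results below was not tested.

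Apart from Rheb and Sesn2, whose differences from IgG led to their choice, 4 of the other 8 regulators were called higher with the Pum2 antibody than with IgG (Rptor, Tsc2, Ddit4 and Mtor) and 0 were called lower. At an unadjusted p under 0.05, 1 member (Tsc1) was lower than IgG and 0 were lower than input in the limma fit. Over all 22180 genes, 19.4% were called higher and 11.4% lower in this comparison. All 10 members were brighter than the median gene, and among the 11090 such genes 34.1% were called higher and 18% lower. Against input, 6 of these 8 were called higher and 0 lower, as were Rheb and Sesn2, beside 21.6% and 13.1% of all genes, and 37% and 21.9% of the brighter ones. The median difference of the 8 was 0.23 over IgG and 0.37 over input (0.39 and 0.42 with Rheb and Sesn2 included), beside 0.04 and 0.07 over all genes and 0.12 in both comparisons over the brighter genes. Of the 8, the 4 named were higher than both controls, as were 14.2% of all genes and 25.9% of the brighter ones. Both comparisons share the Pum2 arrays, so that count is a description. The other comparisons of Rheb and Sesn2 share the Pum2 or the IgG arrays with the difference that led to their choice. The arrays of Pum2 lay wholly above those of IgG in 25.9% of genes and wholly below in 15.4%, against input in 28.5% and 16.8%. Those of IgG lay wholly above input in 15.9% and wholly below in 16.2%. These shares are the background for the statements below on the overlap of 1 gene between 2 groups. For differences between 2 genes, and for the separation of all 3 groups, no such share was computed. Of 18 comparisons of differences between 2 members, 14 had no overlap.

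**Figure D1:**
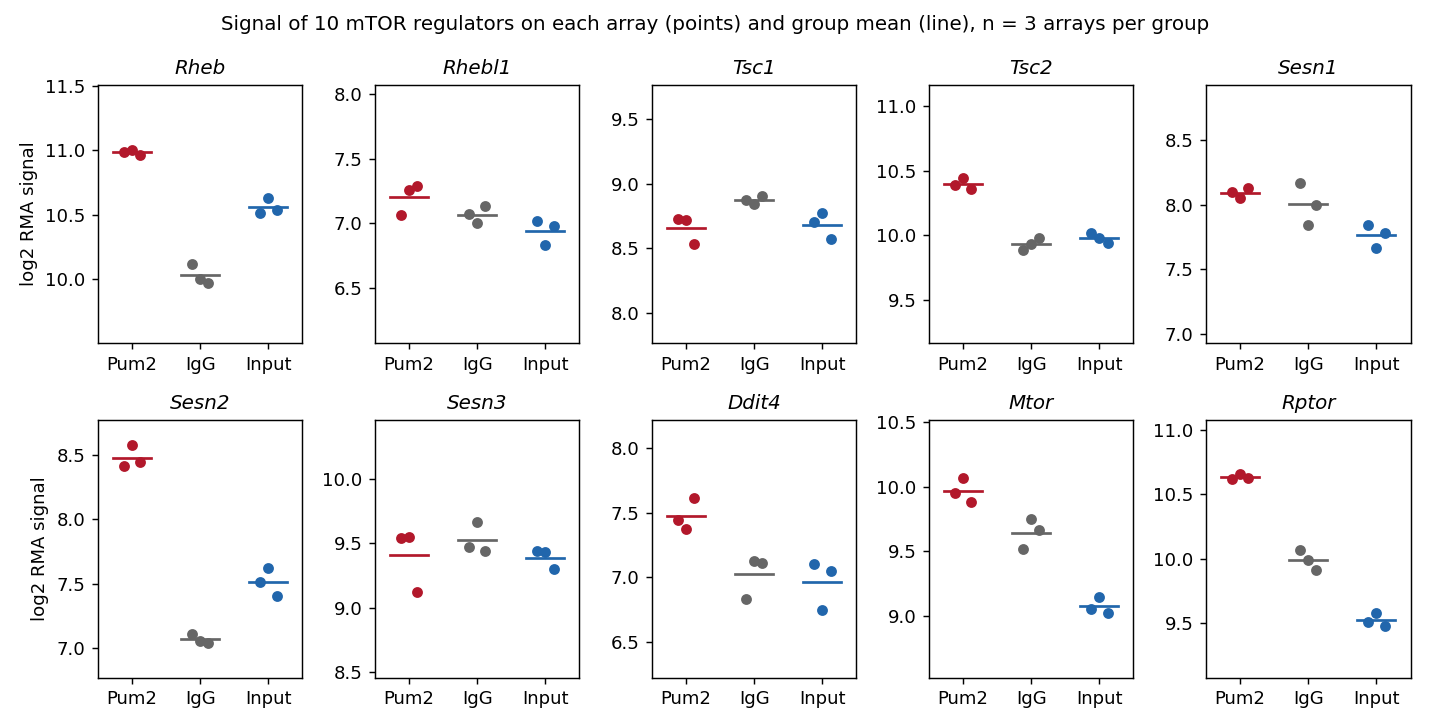
Log2 RMA signal (vertical axis) of the 10 regulators on each of 9 arrays, with Pum2, IgG and input along the horizontal axis, points for arrays and a line for the mean of 3 arrays; every panel spans the same range. Rheb, Tsc2, Sesn2, Ddit4, Mtor and Rptor have all 3 Pum2 points above both other groups. Rheb and Sesn2 have all IgG points below input. Mtor, Rptor, Tsc1 and Sesn3 have all IgG points above input, Sesn3 by a gap of 0.007.

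Rheb, the GTPase that activates mTOR complex 1, had log2 signals of 10.99, 10.998 and 10.96 in the Pum2 arrays, 10.12, 9.9985 and 9.97 in the IgG arrays, and 10.51, 10.63 and 10.54 in the input arrays. The 3 groups did not overlap, with Pum2 highest, input between and IgG lowest. The mean was 0.95 ± 0.07 above IgG, which is 1.94-fold, rank 197 of 22180 genes. Against input Rheb rose by 0.42 ± 0.07 (1.34-fold, limma adjusted p = 0.0011). With nonspecific IgG it fell by 0.53 ± 0.07 relative to input (adjusted p = 0.00088). Both tests reuse arrays of the difference that led to the choice of Rheb, so their p-values are a description.

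Rhebl1, the closest relative of Rheb in mammals, had 7.06, 7.26 and 7.29 in Pum2, 7.07, 6.998 and 7.13 in IgG, and 7.02, 6.83 and 6.98 in input arrays. Its Pum2 and IgG arrays overlapped, and the difference of 0.14 ± 0.09 was not called (95% interval -0.06 to 0.33, adjusted p = 0.296). Over input the difference of 0.26 ± 0.09 was called (adjusted p = 0.043), with a gap of 0.04 between the lowest Pum2 and the highest input array. This was the least firm call among the members. It ended with the replicate number as a block (adjusted p = 0.0534), with only the 2 groups in the fit (adjusted p = 0.0626), with all rows tested (adjusted p = 0.0665), after centring on the brighter genes (0.19, adjusted p = 0.131), and in 7 of 9 fits that left out an array, with values from 0.20 to 0.30 and adjusted p from 0.0503 to 0.144. Those 7 fits left out any input array, IgG replicate 1 or 3, or Pum2 replicate 2 or 3. Within arrays, Rheb minus Rhebl1 was 0.82 ± 0.10 larger in Pum2 than in IgG, and 0.16 ± 0.12 larger in Pum2 than in input (two-sided exact permutation p = 0.3). That p-value is a description, since the Pum2 arrays that led to the choice of Rheb are reused.

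Tsc2, whose protein tuberin carries the activity that switches Rheb off, had 10.39, 10.44 and 10.36 in Pum2, 9.89, 9.94 and 9.98 in IgG, and 10.02, 9.98 and 9.94 in input arrays. The Pum2 arrays lay above both other groups, and IgG and input overlapped. Tsc2 rose by 0.46 ± 0.07 over IgG (1.38-fold, limma adjusted p = 0.00054) and by 0.42 ± 0.07 over input (adjusted p = 0.00075). The difference between IgG and input was -0.04 ± 0.07 (adjusted p = 0.712).

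Tsc1, whose protein hamartin stabilises tuberin, had 8.72, 8.72 and 8.53 in Pum2, 8.87, 8.84 and 8.91 in IgG, and 8.70, 8.78 and 8.57 in input arrays. The Pum2 arrays all lay below IgG but overlapped with input. The difference from IgG was -0.21 ± 0.08 (95% interval -0.40 to -0.03) and was not called (limma adjusted p = 0.0807). It was called after centring of the arrays on the brighter genes (-0.31, adjusted p = 0.0169), with quantile normalization run again (-0.23, adjusted p = 0.0417) and when only the brighter genes were tested (-0.21, adjusted p = 0.0348). From input Tsc1 differed by -0.02 ± 0.08 (adjusted p = 0.858), and the sign of that value turned in 3 of the settings tried. The IgG arrays all lay above input, with a mean difference of 0.19 ± 0.08 that was not called (limma adjusted p = 0.158).

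The changes of both TSC partners were also compared within arrays. Tsc1 minus Tsc2 lay between -1.83 and -1.67 in the Pum2 arrays, between -1.09 and -1.02 in IgG, and between -1.37 and -1.21 in input. The change of Tsc1 was smaller than that of Tsc2 by 0.68 ± 0.05 against IgG and by 0.44 ± 0.07 against input. Neither range overlapped, and the two-sided exact permutation p was 0.1 in both (0.129 adjusted over 18 pair comparisons), the smallest that 3 against 3 arrays allow. Tbc1d7, the third subunit of that complex, fell by 0.29 ± 0.09 relative to IgG (limma adjusted p = 0.0425) and by 0.95 ± 0.09 relative to input (adjusted p = 3.26e-05). It was also lower in IgG than in input, by a difference of -0.66 ± 0.09 (adjusted p = 0.00117).

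**Figure D2:**
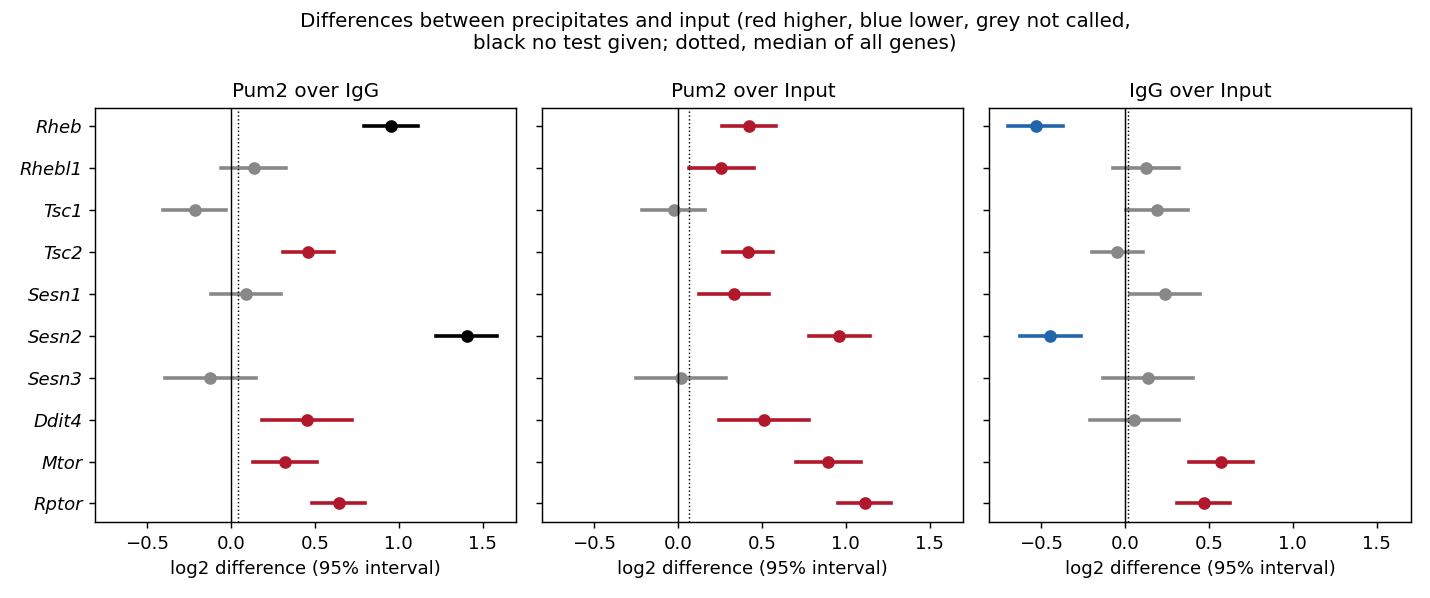
Log2 differences (horizontal axis) of the 10 regulators in 3 comparisons, named above the panels, with 95% intervals from the limma fit; red is called higher, blue called lower, grey not called, black given without a test, and the dotted line is the median of all 22180 genes. Sesn2 and Rheb lie farthest right over IgG, Rptor over input, and Rheb and Sesn2 are the 2 members called lower in IgG than in input.

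Sesn2, a Sestrin that senses leucine and holds back mTOR complex 1 when leucine is short, had 8.41, 8.57 and 8.44 in Pum2, 7.11, 7.06 and 7.04 in IgG, and 7.51, 7.63 and 7.40 in input arrays. The groups did not overlap, and their order was that of Rheb: Pum2, then input, then IgG. The difference from IgG was 1.40 ± 0.08 (2.65-fold), rank 7 of 22180 genes. Over input Sesn2 rose by 0.96 ± 0.08 (1.95-fold, limma adjusted p = 1.25e-05), and with IgG it fell by 0.44 ± 0.08 relative to input (adjusted p = 0.00428). These p-values are a description as well, since the arrays that led to the choice of Sesn2 are reused. Rheb and Sesn2 were the members with IgG called below input and Pum2 above both. That combination, with a call in all 3 comparisons, was found in 1.06% of all genes, and nothing is read from it, since 1 of the comparisons led to their choice.

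Sesn1, a Sestrin known as a target of p53, had 8.10, 8.05 and 8.13 in Pum2, 8.17, 7.84 and 8.001 in IgG, and 7.84, 7.66 and 7.78 in input arrays. Pum2 and IgG overlapped and differed by 0.09 ± 0.09, which was not called (95% interval -0.12 to 0.30, limma adjusted p = 0.532). With arrays centred on the brighter genes that value was -0.005. Sesn1 rose over input by 0.33 ± 0.09 (adjusted p = 0.019). This call ended with arrays centred on the brighter genes (0.26, adjusted p = 0.0648). It also ended without input replicate 2 (0.28), Pum2 replicate 1 (0.33) or Pum2 replicate 3 (0.31), with adjusted p of 0.0716, 0.055 and 0.0592. The IgG arrays were 0.24 ± 0.09 above input without a call (adjusted p = 0.11), and that difference was called without IgG replicate 2 (0.32, adjusted p = 0.0434) and when only the brighter genes were tested (0.24, adjusted p = 0.0469).

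Sesn3, the Sestrin under control of FoxO factors, had 9.55, 9.55 and 9.12 in Pum2, 9.47, 9.67 and 9.44 in IgG, and 9.44, 9.43 and 9.30 in input arrays. The third Pum2 array was the lowest of all 9, and the SD of the Pum2 group was 0.25. No comparison called Sesn3, with differences of -0.12 ± 0.12 from IgG (95% interval -0.39 to 0.15, limma adjusted p = 0.512) and 0.02 ± 0.12 from input (95% interval -0.25 to 0.29, adjusted p = 0.931). Without Pum2 replicate 3 the difference from IgG was 0.02.

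The Sestrins were compared with each other within arrays. Sesn2 minus Sesn1 was 1.31 ± 0.11 larger in Pum2 than in IgG, and Sesn2 minus Sesn3 was 1.53 ± 0.15 larger. Against input these were 0.63 ± 0.13 and 0.94 ± 0.14, with no overlap of the arrays and a two-sided exact permutation p of 0.1 for each (0.129 adjusted over 18 comparisons). Since the Pum2 arrays that led to the choice of Sesn2 are reused here, both p-values are a description. Sesn1 and Sesn3 could not be told apart against IgG, where the difference of their changes was 0.21 ± 0.22 (exact permutation p = 0.6), and against input it was 0.31 ± 0.18 with no overlap (exact permutation p = 0.1).

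Ddit4, also known as REDD1, is induced by low oxygen and other stress and restrains mTOR complex 1 through the TSC complex. It had 7.45, 7.37 and 7.61 in Pum2, 6.83, 7.13 and 7.11 in IgG, and 7.10, 6.75 and 7.05 in input arrays. The Pum2 arrays lay above all others, and IgG and input overlapped. Ddit4 rose by 0.46 ± 0.12 over IgG (1.37-fold, limma adjusted p = 0.0155) and by 0.51 ± 0.12 over input (1.43-fold, adjusted p = 0.00703), and IgG over input was 0.06 ± 0.12 (adjusted p = 0.799). The call over IgG ended without IgG replicate 1 (0.36, adjusted p = 0.0577) or Pum2 replicate 3 (0.39, adjusted p = 0.0629). Its paralog Ddit4l gave 0.22 ± 0.09 over IgG, not called (adjusted p = 0.11), and rose by 0.29 ± 0.09 over input (adjusted p = 0.0386).

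Mtor, which encodes the kinase itself, had 9.95, 10.07 and 9.88 in Pum2, 9.52, 9.75 and 9.67 in IgG, and 9.05, 9.15 and 9.02 in input arrays. The groups did not overlap, and here the order was Pum2, IgG, input. Mtor rose by 0.89 ± 0.09 over input (1.86-fold, limma adjusted p = 2.6e-05), but nonspecific IgG also rose over input, by 0.57 ± 0.09 (1.49-fold, adjusted p = 0.00151). The remaining difference of Pum2 over IgG was 0.32 ± 0.09 (1.25-fold, adjusted p = 0.017). That call ended with arrays centred on the brighter genes (0.23, adjusted p = 0.0707), without IgG replicate 1 (0.26, adjusted p = 0.0585) or without Pum2 replicate 2 (0.27, adjusted p = 0.0647).

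Rptor, the gene of Raptor, which presents substrates to the kinase, had 10.62, 10.66 and 10.63 in Pum2, 10.07, 9.99 and 9.91 in IgG, and 9.51, 9.58 and 9.48 in input arrays. It had the order of Mtor, with wider gaps between Pum2 and IgG. Rptor rose by 1.11 ± 0.07 over input (2.16-fold, limma adjusted p = 2.24e-06), the largest difference over input among the members. It rose by 0.64 ± 0.07 over IgG (1.56-fold, adjusted p = 1e-04), and IgG rose by 0.47 ± 0.07 over input (adjusted p = 0.00154). Mtor changed less than Rptor by 0.32 ± 0.11 against IgG and by 0.22 ± 0.05 against input, with no overlap of the within-array differences (two-sided exact permutation p = 0.1 for each). In IgG over input, 2 of the 8 members not singled out were called higher (Mtor and Rptor) and 0 lower. Beside this, 8.25% and 9.72% of all genes were called higher and lower, and 13.8% and 17.8% of the brighter ones. The 2 members called lower, Rheb and Sesn2, had been chosen by a difference that uses the same IgG arrays, so they are not counted here. Calls in the order Pum2, IgG, input in all 3 comparisons, as for Mtor and Rptor, were made for 1.91% of all genes.

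The wider pathway was read from 9 lists of 96 genes, of which 90 were measured here, 80 of them other than the 10 regulators. Of these 80, 73 were among the brighter genes, so the brighter genes are the closer background for the counts. Relative to IgG 36 of 80 were called higher and 11 lower, a share of 45% and 13.8% beside 34.1% and 18% of the brighter genes, with a median difference of 0.23. Against input 38 were called higher (47.5%) and 16 lower (20%), beside 37% and 21.9% of the brighter genes, with a median of 0.26. In IgG over input 16 were higher (20%) and 15 lower (18.8%), beside 13.8% and 17.8%. Whether any list differs from other genes was not tested, and with at most 14 genes a list, its share is a description.

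Among the other 7 subunits of the mTOR complexes, 1 rose and 1 fell relative to IgG (14.3% each), beside 34.1% and 18% of the brighter genes. Against input 2 rose and 2 fell (28.6% each), beside 37% and 21.9%. Relative to IgG, Mlst8, shared by both complexes, rose by 0.71 ± 0.08 (limma adjusted p = 0.000123). Prr5, a subunit of mTOR complex 2, fell by 1.45 ± 0.12 relative to IgG (adjusted p = 1.99e-05), the lowest value in the 9 lists. Rictor, the defining subunit of complex 2, differed from IgG by -0.01 ± 0.09 (adjusted p = 0.977), and it rose by 0.66 ± 0.09 over input both with Pum2 (adjusted p = 0.00036) and with IgG (adjusted p = 0.00117).

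Of 14 growth factor input genes, 7 rose (50%) and 4 fell (28.6%) relative to IgG, beside 34.1% and 18% of the brighter genes, with a median difference of 0.26. Irs2, an adaptor of the insulin and IGF receptors, rose by 0.79 ± 0.11 (limma adjusted p = 0.000376), and Pdpk1, a kinase that activates Akt, fell by 0.50 ± 0.08 (adjusted p = 0.00133). Pdpk1 was not lower than input with Pum2 (0.04 ± 0.08, adjusted p = 0.791), and with IgG it lay 0.53 ± 0.08 above input (adjusted p = 0.00195). With nonspecific IgG, 8 of these 14 genes (57.1%) were called higher and 0 lower than input, beside 13.8% and 17.8% of the brighter genes, with a median of 0.32 (limma; at an unadjusted p under 0.05, also 0 lower). Its lowest value in IgG over input was 0.01, so no gene of it lay below 0.

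Of 10 genes of the energy branch, which signals through the kinases Lkb1 and AMPK, 6 rose (60%) and 1 fell (10%) relative to IgG, beside 34.1% and 18% of the brighter genes (median 0.40). Cab39, a partner of Lkb1, rose by 0.67 ± 0.13 (limma adjusted p = 0.00369). Stk11, the gene of Lkb1 itself, fell by 0.53 ± 0.10 (adjusted p = 0.00213). Against input, 4 of the 10 were called higher with Pum2 (40%) and 2 lower (20%), near the 37% and 21.9% of the brighter genes, with a median of 0.17. In IgG over input 0 were called higher and 4 lower (40%), beside 13.8% and 17.8% of the brighter genes. Rag and Ragulator proteins bring mTOR complex 1 to the lysosome, and their list of 13 genes also held Slc38a9, Flcn, Fnip1 and Fnip2. Of these 13, 5 rose relative to IgG (Rragb, Rragd, Lamtor1, Flcn and Fnip1), a share of 38.5% near that of the brighter genes. In that comparison 0 fell (median 0.18), also at an unadjusted p under 0.05 in the limma fit. At the ends of this list, Fnip1, a partner of folliculin, rose by 0.96 ± 0.09 over IgG (limma adjusted p = 3.2e-05). The lysosomal transporter gene Slc38a9 gave -0.20 ± 0.12, not called (adjusted p = 0.266). Relative to input, 6 of the 13 rose with Pum2 (46.2%) and 3 fell (23.1%), beside 37% and 21.9% of the brighter genes. With IgG, 1 rose (7.69%) and 4 fell (30.8%) relative to input, beside 13.8% and 17.8%.

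Of 13 measured genes of the GATOR complexes, KICSTOR and the nutrient sensors, through which Sestrins act, 7 rose (53.8%) and 1 fell (7.69%), beside 34.1% and 18% of the brighter genes (median 0.29). Nprl2, a subunit of the inhibitory GATOR1 complex, rose by 0.94 ± 0.08 over IgG (limma adjusted p = 2.16e-05) and 1.16 ± 0.08 over input (adjusted p = 3.16e-06). Bmt2, which encodes a sensor of S-adenosylmethionine, fell by 0.55 ± 0.10 relative to IgG (adjusted p = 0.00216).

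Of 9 measured stress response genes, most of them factors known to induce Sestrins or Ddit4, 5 rose (55.6%) and 2 fell (22.2%) relative to IgG. Beside this stood 34.1% and 18% of the brighter genes, and the median of the 9 was 0.37. Foxo1, a FoxO transcription factor, rose by 0.55 ± 0.08 (limma adjusted p = 0.000683), and Ddit3, the stress factor CHOP, fell by 0.76 ± 0.07 (adjusted p = 3.12e-05). Of 12 measured outputs of mTOR complex 1, 5 rose (41.7%) and 1 fell (8.33%), beside the same background (median 0.16). Ulk1, a kinase that starts autophagy, rose by 0.51 ± 0.08 (adjusted p = 0.00104), and Larp1, a repressor of mRNAs of the translation machinery, fell by 0.29 ± 0.08 (adjusted p = 0.0143). Larp1 was not lower than input with Pum2 (0.18 ± 0.08, limma adjusted p = 0.0986), and with IgG it lay 0.47 ± 0.08 above input (adjusted p = 0.00213).

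**Figure D3:**
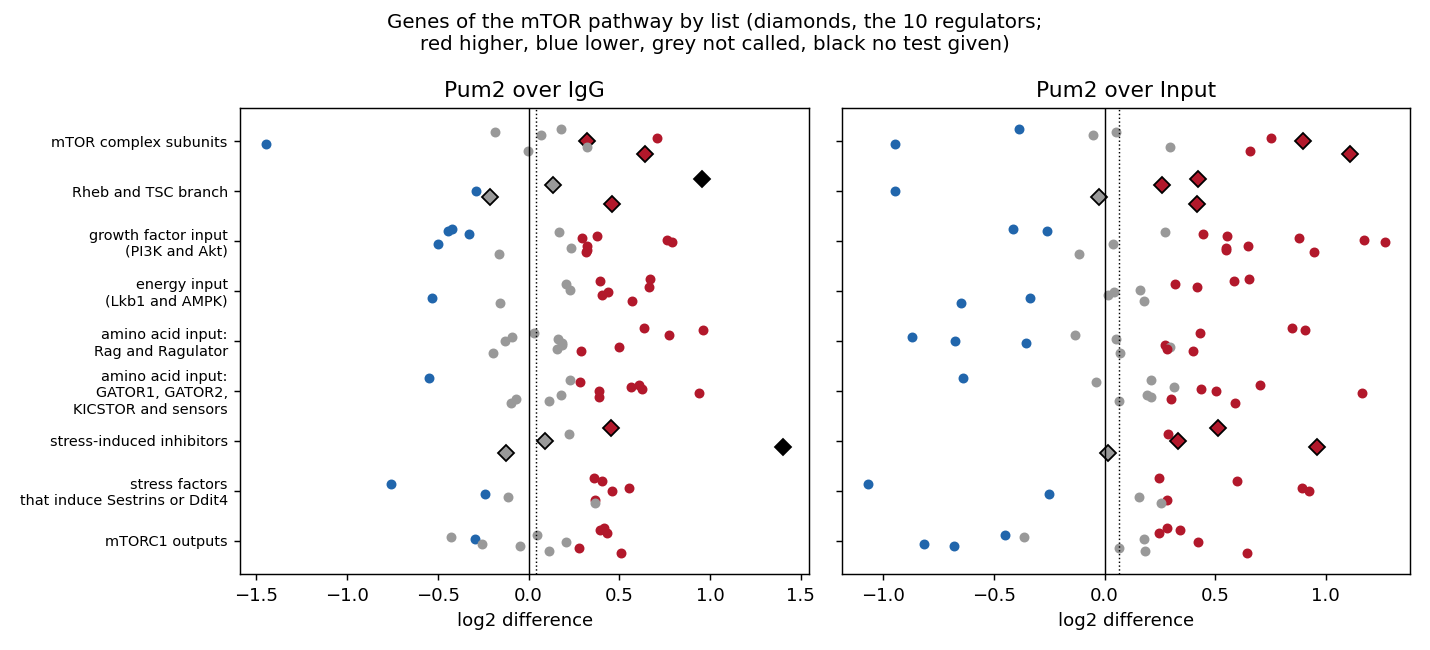
Log2 differences (horizontal axes, of unequal span) of 90 measured pathway genes in 9 lists, in Pum2 over IgG and Pum2 over input; diamonds are the 10 regulators, red is called higher, blue lower, grey not called, black given without a test, and the dotted line is the median of all genes. Sesn2 is the highest point over IgG at 1.40 and Prr5 the lowest at -1.45.

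The genes with the most similar pattern were sought for the 4 members with the widest range of group means, Sesn2, Rptor, Rheb and Mtor. Each gene was centred on its own mean, and the root mean square difference over 9 arrays was taken among 10423 brighter genes with an established name. For Sesn2 the nearest were Ncln (0.10), Med4 (0.10) and Tnfrsf1a (0.10). For Rptor they were Kmt2b (0.06), B4galt5 (0.07) and Fjx1 (0.07), and for Rheb they were Rela (0.05), Tomm40 (0.06) and Mrpl22 (0.06). For Mtor they were Atp2b1 (0.05), Nf1 (0.06) and the Pum2 transcript itself (0.06), whose differences were 0.30 in Pum2 over IgG and 0.61 in IgG over input. Of the 3 genes nearest to Sesn2, Med4 had the highest difference over IgG, 1.29, and that of Sesn2 was 1.40.

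**Figure D4:**
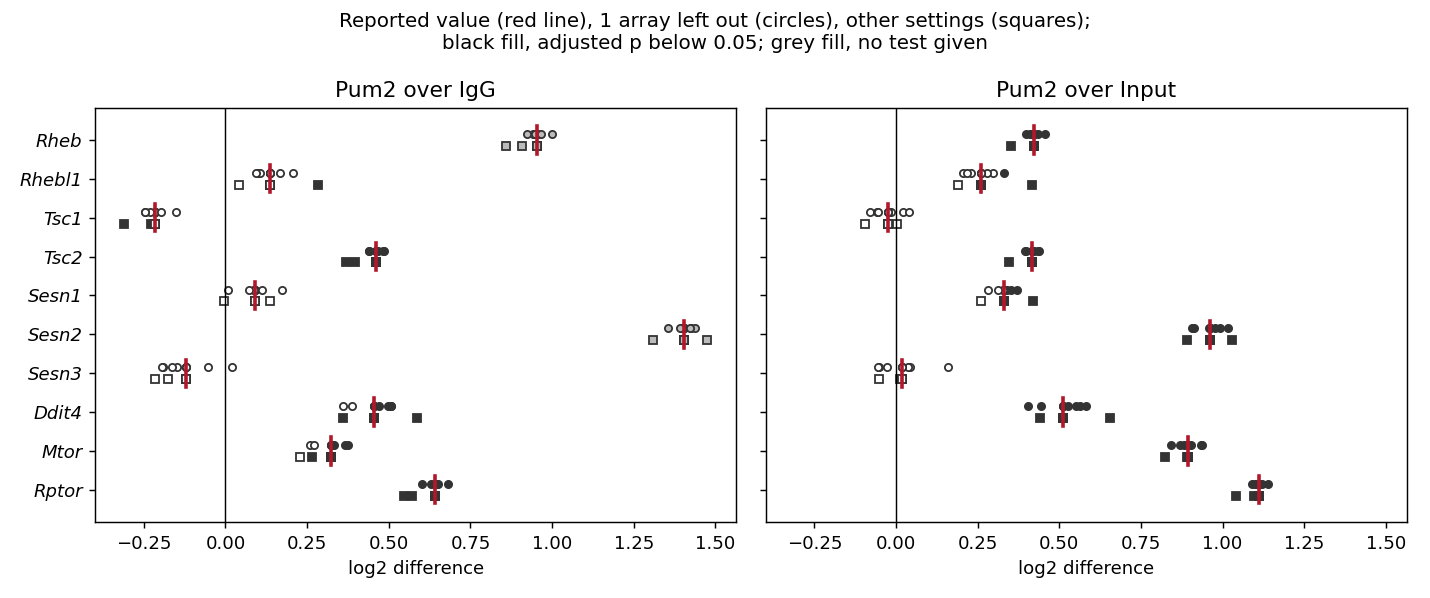
Log2 differences (horizontal axis) of each regulator in Pum2 over IgG and Pum2 over input as reported (red line), with 1 of 9 arrays left out (circles) and under 8 other settings (squares); black fill marks a limma adjusted p below 0.05 and grey fill values given without a test. The symbols of Tsc2 and Rptor are all filled black in both panels, those of Rhebl1 over input are mostly open, and those of Sesn3 fall on both sides of 0 in Pum2 over input.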

How the data were processed

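Log2 signals of 9 arrays were deposited by the authors, made with RMA in Affymetrix Expression Console, per the submitters' processing notes (versions and genome build not given in the sources used here). RMA corrects background, normalizes arrays and summarises probes. Arrays have no sequencing depth, and 3 arrays a group limit the precision. Of 41345 rows, 23521 carried 1 gene symbol in the probe table, 1814 several and 16010 none, which left 22180 genes, each read from its brightest row. No further normalization was applied.

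The test was that of limma (version 3.58.1, R version 4.3.3) over all 9 arrays as 3 groups, without a replicate block, with Benjamini-Hochberg adjustment over 22180 genes and a threshold of 0.05. The fit was first tested on simulated data in which 200 of 22180 genes were changed in the Pum2 arrays. Over IgG, as over input, 47% of 100 changes of log2 size 0.5 and 96% of 100 of size 1 were called. Many more genes were called in the real data, so these shares need not hold there. A missing call thus does not show that a gene was unchanged. Changes of 2 members were compared within arrays by two-sided exact permutation tests, adjusted over 18 comparisons. Those with Sesn2 or Rheb reuse arrays that led to their choice and are a description. The members and lists were chosen with earlier results of these data known. Named pathway genes are the highest and lowest called in each list, otherwise the highest and lowest, and Rictor, chosen after its values were seen. Replicates are biological per the labels, and p-values measure the spread between them.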

Additional observations from a re-analysis of the deposited data

How the results depend on the processing

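Of 30 differences (10 members in 3 comparisons, the 2 of Rheb and Sesn2 over IgG included), 17 kept their direction and their side of the threshold under 8 other settings and 9 fits that each left out 1 array, and 13 did not. Rheb and Sesn2 were chosen on their difference from IgG, so nothing is read from its stability. The count of members lower than IgG was 0 as reported. It was 1 (Tsc1) with quantile normalization run again, after centring on the brighter genes, and when only brighter genes were tested. Signs turned for small, uncalled differences. Quantile normalization gave 0.0020 for Tsc1 in Pum2 over input and 0.017 for Tsc2 in IgG over input, and centring on brighter genes gave -0.0046 for Sesn1 over IgG and -0.053 for Sesn3 over input. With 1 array left out, ranges were -0.080 to 0.039 for Tsc1 and -0.055 to 0.16 for Sesn3 in Pum2 over input. They were -0.19 to 0.020 for Sesn3 over IgG, -0.052 to 0.15 for Ddit4 in IgG over input, and -0.0075 to 0.25 for Sesn1 minus Sesn3 in IgG over input. The cause was not tested. With 1 array left out, Rptor and Tsc2 stayed called higher than IgG, while Ddit4 and Mtor each lost the call in some of these fits. Of the 10 members (Rheb and Sesn2 included), 6 to 8 were then higher than input. With quantile normalization Rhebl1 was called over IgG (0.28, adjusted p = 0.0233).

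With the replicate number as a block, Rptor, Tsc2, Ddit4 and Mtor stayed called higher than IgG. The members higher than input (Rheb and Sesn2 included) went to 7, against 8 as reported. Same-numbered arrays deviated together only weakly, with r from 0.002 to 0.135 and 3 of 9 pairs over 0.1, and 8 of 9 matched their own number best. Scaling also moved the background. With quantile normalization the median of all genes was 0.19 over IgG and over input, and 8093 genes were higher than IgG, against 4296 as reported. Higher calls made up 63% of all calls over IgG and 62.3% over input as reported, 79.1% and 76.6% with quantile normalization, 46.9% and 52.2% with centring on brighter genes, and 42.9% and 44.6% over all rows. Rptor, Tsc2 and Ddit4 stayed called over IgG under both scalings. The exact permutation test of single members cannot give a p below 0.1.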
